A study of Caenorhabditis elegans with 16 samples.

Results

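Aminoacyl-tRNA synthetases are the enzymes that join each amino acid to its tRNAs. The genes described here are the 33 whose symbol is an amino acid's one-letter code followed by "ars" and a number, as listed in the authors' deposited interaction table, out of 46911 genes in the count files. All 33 were among the 14058 genes with enough counts to be tested (CPM, counts scaled to library size, of at least 1 in at least 4 libraries), with 62 to 19826 counts per library. Together they cover 20 amino acids, and 32 are protein-coding. The other, cars-2, is classed as a pseudogene and lies 1108 bases from cars-1. Synthetase genes with other symbols did not meet the naming rule, among them glp-4, so the valine enzyme of the cytosol is not among the members.

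Libraries of polyadenylated RNA came from whole Caenorhabditis elegans larvae that hatched without food and arrested at the first larval stage (L1), 10000 larvae per library, at 12 hours after hatch and 20 °C. The 16 libraries form 4 groups of 4, called biological replicates in the labels. The triple mutant carries daf-2(e1370), irld-39(duk1) and irld-52(duk17) and was sampled as independent lines, LRB457 (replicates 1 and 3) and LRB458 (replicates 1 and 4). The daf-2 mutant is strain CB1370 with daf-2(e1370), the irld mutant is strain LRB444 with irld-39(duk1) and irld-52(duk17), and wild type is N2. All larvae were starved. The daf-2, irld and wild-type groups are 1 strain each, so an allele's effect and a difference between strains cannot be told apart, whereas the triple mutant had a pair of lines. The worm's insulin/IGF receptor is encoded by daf-2, and irld genes encode proteins related to its ligand-binding part.

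A synthetase activates its amino acid with ATP and transfers it to the matching tRNA, and the charged tRNA then brings the amino acid to the ribosome. Animals need enzymes of this kind in the cytosol and in mitochondria, and in C. elegans some are encoded by separate genes while others supply both places from 1 gene. When charging falls short, uncharged tRNA can activate the kinase GCN-2, which slows translation initiation. By general knowledge of their orthologs, 19 of the members encode cytosolic or shared enzymes and 11 encode mitochondrial ones, and 3 (cars-2, yars-1 and yars-2) were left unassigned here.

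Gene counts per library ranged from 14033534 to 24903552. The summed CPM of the 33 genes was 4178 ± 351 in the triple mutant, 4622 ± 385 in the daf-2 mutant, 4388 ± 263 in the irld mutant and 4052 ± 604 in wild type (SD, n = 4 each). The lowest library sum, 3165, was that of wild-type replicate 3, and the other 3 wild-type sums reached up to 4498. Markers of body wall muscle were also low in that library, at a summed 9174 CPM over 6 genes (each with counts in the wild-type group), against 22160 to 23190 in the other wild-type libraries. That library was also the lowest of its group for the summed markers of intestine (2825 CPM, the others 3937 to 4849), neurons (1560, the others 2068 to 2553) and hypodermis (79, the others up to 126). These lists hold 7 genes each, all with counts in the wild-type group. Its sum over 19 early embryo markers, 190 CPM, lay within the range of the other wild-type libraries. In irld replicate 1, most cytosolic synthetases were high. Its body wall muscle markers summed to 13610 CPM, against 21240 to 24650 in the other irld libraries. The part of these differences in the results below was not tested, and several results are also given without those libraries. The mutated genes do not check the labels, since daf-2 was read at 413 ± 34.1, 451 ± 27.5, 511 ± 86.1 and 409 ± 165.5 CPM in the triple, daf-2 and irld mutants and wild type, and irld-39 and irld-52 had 1 to 12 counts per library. RNA came from whole larvae, so fewer cells of a type and less RNA per cell cannot be told apart.

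The cytosolic genes were expressed above their mitochondrial counterparts in every case where both were members. Per kilobase of the longest coding sequence, the most abundant member was lars-1, the leucine enzyme of the cytosol, with a mean level of 233.7 CPM per kb in the triple mutant, 267 in the daf-2 mutant, 216.5 in the irld mutant and 194 in wild type. It alone supplied 15.5% to 21.4% of the summed CPM of the members in a library. The serine enzyme gene sars-1 came next, at 169.5, 173, 196.5 and 183.5 CPM per kb in the same order of groups. At the low end stood a pair of mitochondrial enzymes. The proline enzyme gene pars-2 had 4.05, 4.34, 3.48 and 4.17 CPM per kb, and the phenylalanine enzyme gene fars-2 had 5.44, 6.32, 4.13 and 3.80 CPM per kb in the same order. In single libraries pars-2 had 5.00, 5.62, 6.42 and 5.02 CPM in the triple mutant and 6.43, 6.11, 5.51 and 5.60 CPM in the daf-2 mutant. It had 3.97, 4.60, 4.80 and 5.59 CPM in the irld mutant and 5.93, 5.98, 5.06 and 5.74 CPM in wild type. The 4 groups overlapped for pars-2, and no comparison called it.

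**Figure D1:**
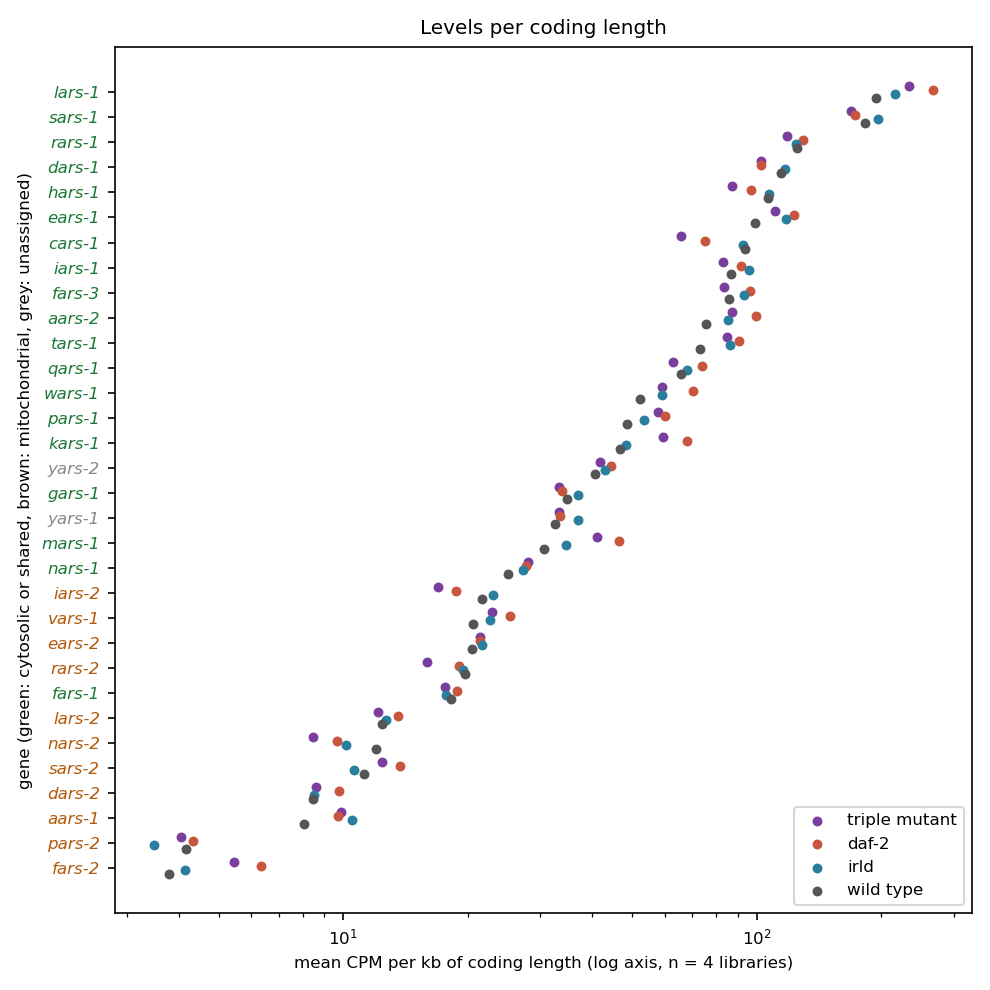
Mean level of the 32 protein-coding synthetase genes per kilobase of coding length, on a log axis, with 1 point per genotype (n = 4 libraries each) and genes ordered by wild type. The upper part is led by the cytosolic lars-1 (green names) at 233.7, 267, 216.5 and 194 CPM per kb in the triple, daf-2 and irld mutants and wild type, and mitochondrial genes (brown names) lie in the lower part, with the cytosolic fars-1 among them.

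In wild type the level per kilobase of the cytosolic gene exceeded that of the mitochondrial gene in 11 of 11 pairings, by 2.12-fold for the asparagine enzymes nars-1 and nars-2 up to 22.9-fold for fars-3 and fars-2, with a median of 10.7-fold. The ratio fars-1 over fars-2 was 3.27 ± 0.38 in the triple mutant, 2.99 ± 0.16 in the daf-2 mutant, 4.37 ± 0.73 in the irld mutant and 4.84 ± 0.39 in wild type (SD, n = 4 each). The cytosolic phenylalanine enzyme is built from an alpha subunit (fars-1) and a beta subunit (fars-3), and their RNA levels per kilobase were unequal. The level of fars-3 was 4.75 ± 0.34 times that of fars-1 in the triple mutant, 5.12 ± 0.21 times in the daf-2 mutant, 5.29 ± 0.29 times in the irld mutant and 4.69 ± 0.89 times in wild type. In single libraries this ratio lay between 3.47 and 5.62. These ratios are descriptions of RNA levels. The gene fars-1 shares exon bases with a gene on the other strand that had 66 counts over the 16 libraries, against 8040 for fars-1.

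The comparison of the daf-2 mutant with wild type asks how reduced insulin/IGF receptor function changes these genes in starved larvae. Of the 33 members, 6 were higher and 1 was lower in the daf-2 mutant (edgeR's quasi-likelihood test, Benjamini-Hochberg adjusted p under 0.05 over all tested genes). The background shares were 7.97% of all tested genes called higher and 7.74% called lower. The higher genes encode the enzymes for phenylalanine (fars-2), valine (vars-1), methionine (mars-1), lysine (kars-1), leucine (lars-1) and tryptophan (wars-1). The first pair are mitochondrial and the others cytosolic or shared. The lower gene was cars-1, which encodes the cysteine enzyme. The members' median log2 fold change was 0.14, against -0.003 over all tested genes, and 25 of the 33 had a positive value. Libraries of the 2 groups did not overlap for 10 members, all higher in the daf-2 mutant, where 9.45% of all tested genes had such a separation upward. In the same comparison the median log2 fold change was 0.48 over 6 tested hypodermis markers (1 called higher), 0.18 over 6 body wall muscle markers (none called), -0.12 over 7 intestine markers (1 higher, 1 lower), -0.21 over 7 neuron markers (none called) and -0.43 over 17 tested early embryo markers (none called). Hypodermis markers summed to 102.1 to 137.3 CPM in the daf-2 mutant and 79 to 126 CPM in wild type, and early embryo markers to 62.9 to 183.9 CPM in the daf-2 mutant and 143.5 to 204.4 CPM in wild type. Their part in the members' values was not tested.

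Among the mitochondrial enzymes, fars-2 had the largest change. It read 9.37, 7.83, 9.33 and 8.19 CPM in the daf-2 mutant, against 4.84, 4.88, 5.99 and 5.17 CPM in wild type. Each daf-2 library lay above all wild-type libraries. The log2 fold change was 0.73 ± 0.14 (SE; edgeR's quasi-likelihood test, adjusted p = 0.00206). The valine gene vars-1 read 76.3, 72.9, 69.8 and 78.6 CPM in the daf-2 mutant, against 63.2, 58.6, 55.3 and 65.4 CPM in wild type. Again the groups did not overlap, with a smaller difference of 0.30 ± 0.08 in log2 (adjusted p = 0.0143; 0.105 with no filter on low counts). This gene varied least of all members within groups (SD of log2 CPM 0.073, against a median of 0.168 over the members and 0.261 over all tested genes).

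For each of the higher cytosolic enzymes, wild-type replicate 3 was the lowest library. The methionine gene mars-1 read 135.5, 120, 132.5 and 123 CPM in the daf-2 mutant, against 96.5, 86.5, 57.4 and 97.2 CPM in wild type, and the groups were separate. Its log2 fold change was 0.60 ± 0.13 (edgeR's quasi-likelihood test, adjusted p = 0.00513) and 0.44 without wild-type replicate 3 (adjusted p = 0.000895). The lysine gene kars-1 read 130, 108, 135 and 113 CPM in the daf-2 mutant, against 78.8, 96.1, 64.6 and 95.8 CPM in wild type. These groups were separate too, at 0.53 ± 0.13 in log2 (adjusted p = 0.00916) and 0.42 without wild-type replicate 3 (adjusted p = 0.0196). The abundant lars-1 read 1016, 894, 1075 and 820 CPM in the daf-2 mutant, against 736, 778, 489 and 763 CPM in wild type. All daf-2 libraries stood above the highest wild-type library. Its log2 fold change of 0.46 ± 0.14 (adjusted p = 0.0322) was 0.31 without wild-type replicate 3 (adjusted p = 0.0484). The call was lost without both that library and irld replicate 1 (0.31, adjusted p = 0.0556), and without daf-2 replicate 1 (0.43, adjusted p = 0.0857) or replicate 3 (0.40, adjusted p = 0.0885). For wars-1 the means were 87.6 ± 6.38 CPM in the daf-2 mutant and 65.2 ± 10.8 CPM in wild type (SD, n = 4 each), a log2 fold change of 0.43 ± 0.11 (adjusted p = 0.0167). It was 0.38 without daf-2 replicate 3 (adjusted p = 0.0511) and 0.30 without wild-type replicate 3 (adjusted p = 0.0318).

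The cysteine gene cars-1 moved the other way. It read 222, 190, 232 and 174.5 CPM in the daf-2 mutant, against 266, 265, 231 and 263 CPM in wild type. The groups overlapped only through wild-type replicate 3, which lay beside the highest daf-2 libraries. The log2 fold change was -0.32 ± 0.10 (edgeR's quasi-likelihood test, adjusted p = 0.0450). The call was lost without daf-2 replicate 1, 2 or 4 (-0.37, -0.29 and -0.25) or wild-type replicate 1 or 2 (-0.34 and -0.31), with adjusted p between 0.0509 and 0.127. It was also lost with edgeR's own low-count filter (-0.32, adjusted p = 0.0560) and with no such filter (-0.32, adjusted p = 0.138). The same held in a fit of these 2 groups alone (-0.32, adjusted p = 0.146) and with replicate numbers as a block (-0.33, adjusted p = 0.0536). Exons of cars-1 overlap a gene on the opposite strand, Y23H5A.2, which had 999 counts in all, against 58513 for cars-1, and whose log2 fold change here was 0.14 (adjusted p = 0.635). A fit of the daf-2 and wild-type libraries alone called 2 members, fars-2 (adjusted p = 0.0155) and mars-1 (adjusted p = 0.0415).

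**Figure D2:**
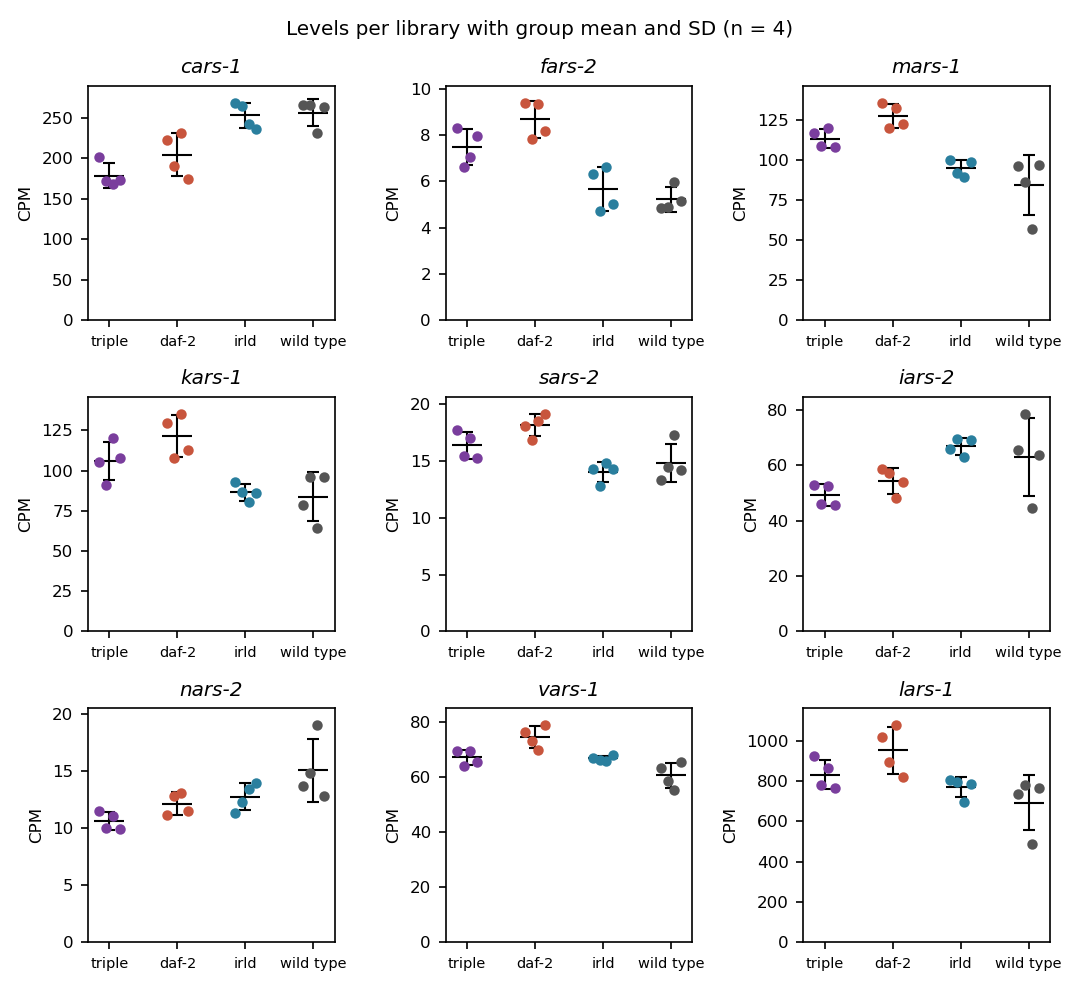
Level in CPM of 9 synthetase genes in each library (points), with group mean and SD (bars, n = 4), for the triple, daf-2 and irld mutants and wild type from left to right. Levels of fars-2 and mars-1 in all 8 libraries with daf-2(e1370) lie above all 8 without it, and wild-type replicate 3 is the lowest for mars-1, kars-1 and lars-1.

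The comparison of the triple mutant with the irld mutant asks the same question in larvae that carry both irld alleles, with no library shared with the previous comparison. None of the members was called higher and 2 were called lower, cars-1 and the mitochondrial isoleucine gene iars-2, against background shares of 9.8% higher and 8.64% lower. The median log2 fold change was -0.05 over the members and -0.01 over all tested genes. When libraries were scaled by all their reads, 19 of the 33 values were positive instead of 11, the members' median was 0.04 and 2 members, kars-1 and mars-1, were called higher beside the 2 lower. With DESeq2's size factors fars-2 was called higher beside the 2 lower. Without irld replicate 1 the calls were fars-2 higher (0.49, adjusted p = 0.0468) and cars-1 lower. Without both that library and wild-type replicate 3, fars-2 (0.48, adjusted p = 0.0281), kars-1 (0.36, adjusted p = 0.0357) and mars-1 (0.31, adjusted p = 0.00958) were called higher beside the 2 lower, by edgeR's quasi-likelihood test. Those libraries were picked from the members' own levels, so these calls are no independent evidence of higher levels. The wild-type library is not part of this comparison and enters only through the shared fit. Fitted alone, these 2 groups gave kars-1 (0.32, adjusted p = 0.0283) and mars-1 (0.28, adjusted p = 0.015) as higher by edgeR's test. The 2 lower calls stayed. DESeq2's test called fars-2 higher beside the 2 lower. Without irld replicate 3, fars-2 was called higher and 3 members lower. The count of higher calls thus depended on the libraries, the scaling, the test and the groups fitted. Libraries of the groups were separate for 3 members with a higher level (fars-2, mars-1 and sars-2) and the 2 called lower, and 13.1% and 13.9% of all tested genes separated upward and downward.

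For cars-1 the libraries read 202, 172, 168 and 173 CPM in the triple mutant, against 268, 265, 243 and 236.5 CPM in the irld mutant. The groups did not overlap, and both lines of the triple mutant lay below every irld library. The log2 fold change was -0.50 ± 0.10 (edgeR's quasi-likelihood test, adjusted p = 0.00323). It was -0.433 with line LRB457 alone, where the call was lost (adjusted p = 0.062), and -0.565 with LRB458 alone (adjusted p = 0.0167). The opposite-strand neighbour of cars-1, Y23H5A.2, had a log2 fold change of 0.51 (adjusted p = 0.0674). For iars-2 the readings were 53.1, 46.2, 52.6 and 45.9 CPM in the triple mutant, against 65.8, 69.6, 63.2 and 69.0 CPM in the irld mutant. The groups were separate, and the log2 fold change was -0.44 ± 0.13 (adjusted p = 0.0287). That call was lost without LRB457 replicate 3, LRB458 replicate 4 or irld replicate 1, 2 or 4, at -0.42 to -0.40 (adjusted p between 0.0695 and 0.0867), and with no filter on low counts (-0.41, adjusted p = 0.0601). It was also lost with line LRB457 alone (-0.43, adjusted p = 0.142) and with LRB458 alone (-0.44, adjusted p = 0.138). Exons of iars-2 overlap clec-87 on the opposite strand and C25A1.20 on the same strand, whose log2 fold changes were -1.32 (adjusted p = 0.138) and -0.43 (adjusted p = 0.235).

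The genes that were higher in the daf-2 mutant than in wild type gave smaller values here. In the fit of all 16 libraries with the main scaling none passed edgeR's test. The level of fars-2 was 8.29, 6.63, 7.06 and 7.95 CPM in the triple mutant, against 6.34, 4.74, 6.62 and 5.02 CPM in the irld mutant. The lowest triple mutant library and the highest irld library were nearly level, with a log2 fold change of 0.40 ± 0.14 (edgeR's quasi-likelihood test, adjusted p = 0.0584). The level of mars-1 was 117, 109, 120 and 108 CPM in the triple mutant, against 100, 92.0, 89.5 and 98.9 CPM in the irld mutant. These groups did not overlap, at 0.25 ± 0.13 in log2 (adjusted p = 0.200). The level of kars-1 was 105, 91.3, 120 and 108 CPM in the triple mutant, against 93.0, 86.6, 80.6 and 85.8 CPM in the irld mutant. They overlapped by 1 library each, with 0.30 ± 0.13 (adjusted p = 0.123). For lars-1, with 922, 778, 861 and 765 CPM in the triple mutant against 804, 796, 696 and 786 CPM in the irld mutant, the groups overlapped (0.11 ± 0.14, adjusted p = 0.650). For vars-1 the triple mutant had 69.5, 64.0, 69.3 and 65.5 CPM and the irld mutant 66.7, 66.1, 65.7 and 68.0 CPM. The irld libraries lay inside the triple mutant's range, and the log2 difference was 0.01 with a 95% interval of -0.15 to 0.17. For wars-1 it was -0.004 with an interval of -0.24 to 0.23.

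**Figure D3:**
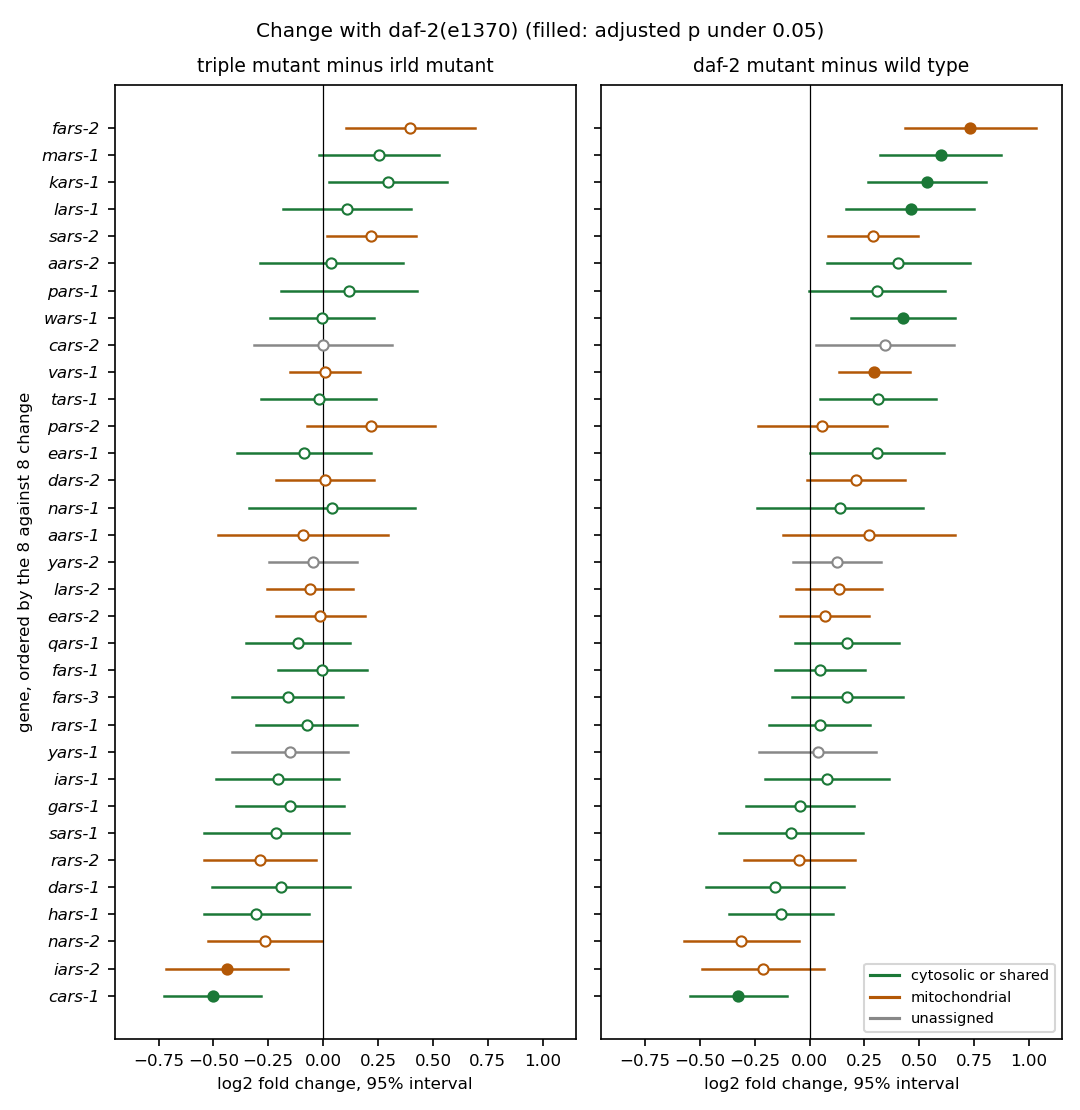
Log2 fold change with its 95% interval for each of the 33 synthetase genes in the triple mutant minus the irld mutant (left) and in the daf-2 mutant minus wild type (right), ordered by the mean of both, with filled points for calls at adjusted p under 0.05. Filled points are cars-1 and iars-2 on the left, and fars-2, mars-1, kars-1, lars-1, wars-1, vars-1 and cars-1 on the right.

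Over the 33 members, 11 had positive and 8 had negative values in both comparisons, and the other 14 were positive between daf-2 mutants and wild type and negative between the triple mutant and the irld mutant. The same sign in both was thus seen in 57.6% of the members and in 71.2% of all tested genes. Positive values numbered 25 between daf-2 mutants and wild type and 11 between the triple mutant and the irld mutant. They numbered 21 and 16 without both wild-type replicate 3 and irld replicate 1. The members' signs thus depended in part on those libraries, and the share was not computed without them. The mean of both comparisons, 8 libraries with daf-2(e1370) against 8 without it, called 6 members higher and 4 lower, against background shares of 16.1% and 15% of all tested genes. Both counts were near those shares, so they are no result about the members as a set. This mean rests on the same libraries as its parts. With libraries scaled by all reads the split was 8 higher and 2 lower. Without both wild-type replicate 3 and irld replicate 1, left out after their levels were seen, it was 8 higher and 4 lower.

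Higher in this mean were fars-2 (0.56 ± 0.10, adjusted p = 0.00042), mars-1 (0.43 ± 0.09, adjusted p = 0.00224), kars-1 (0.42 ± 0.09, adjusted p = 0.00231), lars-1 (0.28 ± 0.10, adjusted p = 0.0347), sars-2 (0.26 ± 0.07, adjusted p = 0.00948) and vars-1 (0.15 ± 0.05, adjusted p = 0.0403), by edgeR's quasi-likelihood test. For fars-2 and mars-1 all 8 libraries with the allele lay above all 8 without it, as did 4.19% of all tested genes. Lower were cars-1 (-0.41 ± 0.07, adjusted p = 0.000496), iars-2 (-0.32 ± 0.09, adjusted p = 0.0143), the mitochondrial asparagine gene nars-2 (-0.29 ± 0.09, adjusted p = 0.0190) and the histidine gene hars-1 (-0.22 ± 0.08, adjusted p = 0.0466). The calls of hars-1, vars-1, lars-1, nars-2 and iars-2 were lost in 19, 15, 8, 4 and 1 of 25 other settings. The mitochondrial serine gene sars-2 had 17.8, 15.5, 17.03 and 15.3 CPM in the triple mutant and 18.1, 16.8, 18.5 and 19.1 CPM in the daf-2 mutant. It had 14.3, 12.8, 14.8 and 14.3 CPM in the irld mutant and 13.4, 14.5, 17.3 and 14.2 CPM in wild type. The only overlap between libraries with and without the allele came from wild-type replicate 3.

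For nars-2 the readings were 11.5, 10.0, 11.04 and 9.92 CPM in the triple mutant and 11.1, 12.8, 13.1 and 11.5 CPM in the daf-2 mutant. They were 11.3, 12.3, 13.4 and 13.9 CPM in the irld mutant and 13.6, 14.8, 18.97 and 12.8 CPM in wild type. Wild-type replicate 3, the lowest library for most cytosolic members, was the highest of all 16 for nars-2. The opposite-strand gene Y66D12A.24, which shares exon bases with nars-2, had 3082 counts in all, against 3333 for nars-2, and was itself lower (-0.57, adjusted p = 0.00743). The strand setting of the counting is not given in the sources used here, so whether reads of either gene were counted for the other is not known.

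Between the triple mutant and wild type, 2 members were higher and 2 lower, with background shares of 10.1% and 10.4%. This comparison shares the wild-type libraries with the daf-2 comparison and the triple mutant libraries with the irld comparison. The higher genes were fars-2 (0.52 ± 0.14, adjusted p = 0.0157) and mars-1 (0.43 ± 0.13, adjusted p = 0.0290). The lower genes were cars-1 (-0.52 ± 0.10, adjusted p = 0.00253) and nars-2 (-0.51 ± 0.12, adjusted p = 0.00878), by edgeR's quasi-likelihood test. Libraries of the 2 groups did not overlap for any of the 4, and 10.9% and 11.3% of all tested genes separated upward and downward. The log2 fold change of mars-1 was 0.30 without wild-type replicate 3 (adjusted p = 0.0114), and its call was lost without replicate 1 of either line (0.41 and 0.40, adjusted p = 0.0652 and 0.0648). The call of nars-2 was lost with library sizes of all reads (-0.44, adjusted p = 0.0506) and in a fit of these 2 groups alone (-0.50, adjusted p = 0.0542). That of mars-1 was also lost in this fit (0.44, adjusted p = 0.0907), and that of fars-2 with no filter on low counts (0.525, adjusted p = 0.0618). With line LRB457 alone no member was called, and with LRB458 alone only cars-1. Without wild-type replicate 3 the count was 2 higher and 5 lower. With libraries scaled by all reads it was 5 higher and 1 lower.

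The irld alleles were compared in both daf-2 backgrounds. In larvae with normal daf-2, no member was called between irld mutants and wild type by edgeR's quasi-likelihood test, none had an unadjusted p under 0.05 and DESeq2 called none, with 0.00711% of all tested genes called. Values ranged from -0.26 (pars-2) to 0.39 (aars-1, the mitochondrial alanine enzyme), with a median 95% interval of ±0.26 around each. Positive values were found for 26 of the 33. This count was 17 without wild-type replicate 3, 16 without irld replicate 1 and 8 without both, so the direction of the majority depended on those libraries. The value of aars-1 rested on wild-type replicate 2, which read 9.96 CPM, against 19.6 to 24.3 CPM in the other wild-type libraries and 23.3 to 27.6 CPM in the irld mutant. Only vars-1 separated the groups (0.14, 95% interval -0.02 to 0.30), as did 0.925% of all tested genes upward.

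In larvae with daf-2(e1370), no member was called between triple and daf-2 mutants (0.0925% of all tested genes were called). DESeq2 called none, and 3 members (qars-1, rars-2 and wars-1) had an unadjusted p under 0.05 by edgeR's quasi-likelihood test. All but 3 members had a negative value, as did 53.5% of all tested genes. The median was -0.15, against -0.02 over all tested genes. The 7 other lists of translation and tRNA genes described below also had negative medians, from -0.22 (cytosolic ribosomal proteins, 67 of 67 negative) to -0.06 (RNA polymerase III). The members' median stayed between -0.18 and -0.10 in the other settings, and their number of negative values between 26 and 33. The groups were separate for dars-2, fars-3, vars-1 and wars-1, each lower in the triple mutant, where 4.3% of all tested genes had such a separation downward. For wars-1, the tryptophan gene, the means were 73.8 ± 2.30 CPM in the triple mutant and 87.6 ± 6.38 CPM in the daf-2 mutant (SD, n = 4 each; log2 fold change -0.25 ± 0.11, adjusted p = 0.764). For vars-1 they were 67.1 ± 2.77 and 74.4 ± 3.88 CPM in the same order (-0.15 ± 0.08, adjusted p = 0.771).

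The interaction, the change of the triple mutant over the irld mutant minus that of the daf-2 mutant over wild type, tests whether the effect of daf-2(e1370) differs between the backgrounds. No member was called by edgeR's quasi-likelihood test or by DESeq2, with 0.064% of all tested genes called by the first, and 2 members had an unadjusted p under 0.05, wars-1 (-0.43 ± 0.16) and vars-1 (-0.29 ± 0.11), both with adjusted p = 0.762. The sign was negative for 31 of the 33 members, all 19 cytosolic or shared ones among them, against 50.9% of all tested genes. It was also negative for 12 of 13 genes of tRNA modification and export, 8 of 9 cytosolic elongation factors and 53 of 67 cytosolic ribosomal proteins. Among initiation factors it was negative for 20 of 33, in RNA polymerase III for 5 of 7 and among stress response genes for 4 of 6. For mitochondrial ribosomes and elongation it was 32 of 72. The members' median was -0.20 and the median of all tested genes -0.01. Each single value carried a 95% interval of about ±0.37. The median lay at -0.13 without wild-type replicate 3, at -0.11 without irld replicate 1 and at -0.10 without both, and the negative count at 30, 26 and 26. The members' values are not independent of each other, since most cytosolic members moved together between libraries. In the authors' deposited table of the interaction, 29 of the 33 log2 fold changes were positive, with none called (adjusted p 0.767 to 0.998). The direction of that table is not stated in the sources used here, and its sign was opposite to the one used here in 92.7% of 12690 genes and 31 of the 33 members.

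Cytosolic members varied together within groups. In wild-type replicate 3 they stood at a median of -0.43 log2 units from their mean over the 16 libraries, and this library was the lowest of its group for 16 of the 19, where 31.3% of all tested genes had it lowest. In irld replicate 1 the highest value of the group was found for 18 of the 19, against 26.1% of all tested genes. Replicate 3 of the daf-2 mutant was the highest for 14 of the 19 (35.6% of all tested genes) and replicate 4 the lowest for 16 (30.5%). LRB458 replicate 1 was the highest triple mutant library for 13 of the 19, against 29.9% of all tested genes. Of the 11 mitochondrial members, 5 were lowest in wild-type replicate 3 and 2 were highest in irld replicate 1. The summed level of these 11 genes was 282 ± 12.6 CPM in the triple mutant, 309.6 ± 9.31 in the daf-2 mutant, 304.7 ± 10.4 in the irld mutant and 290.3 ± 12.1 in wild type (SD, n = 4 each).

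**Figure D4:**
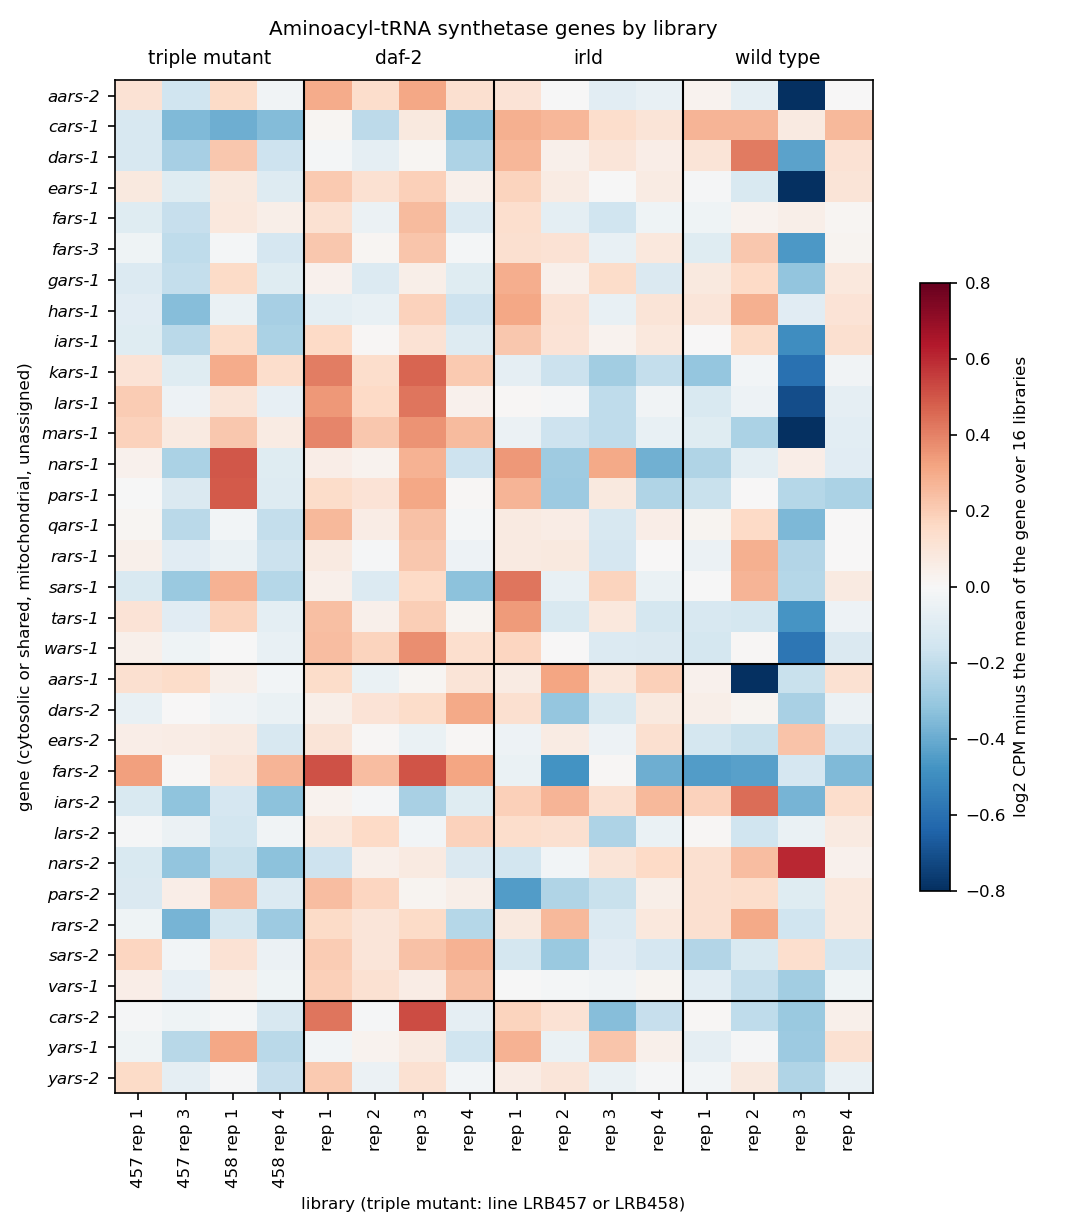
Log2 CPM of each synthetase gene minus its mean over the 16 libraries (colour, red higher and blue lower), with libraries in columns by genotype and genes in rows by compartment. Wild-type replicate 3 is blue for most cytosolic genes, at a median of -0.43 from the mean over the 16 libraries, and the daf-2 columns are red for fars-2, mars-1, kars-1 and lars-1.

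The synthetases charge tRNAs for the ribosome, and lists of other translation genes were counted in the same way. In the 8 against 8 mean, where 16.1% of all tested genes were called higher and 15% lower, 50 of 67 tested cytosolic ribosomal protein genes were lower with daf-2(e1370) and none was higher, with a median log2 fold change of -0.28. Of 33 initiation factor genes, 3 were higher, the eIF4A helicase gene inf-1 (0.71 ± 0.14, adjusted p = 0.00141) and the eIF3 subunits eif-3.D (0.34 ± 0.08, adjusted p = 0.00373) and eif-3.C (0.33 ± 0.08, adjusted p = 0.00394). The eIF3 subunit gene eif-3.E was lower (-0.23 ± 0.07, adjusted p = 0.0268). None of 9 cytosolic elongation factor genes was called. Among 72 genes of mitochondrial ribosomes and elongation, 3 were higher and 16 lower, where the 11 mitochondrial synthetases had 3 higher and 2 lower. The difference between these lists was not tested.

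Among 6 genes that respond to uncharged tRNA or act in the integrated stress response, gcn-1, whose product is needed to activate GCN-2, was higher. It had 99.3 ± 8.88 CPM in the triple mutant, 115 ± 5.48 in the daf-2 mutant, 78.6 ± 17.5 in the irld mutant and 67.4 ± 20.6 in wild type (SD, n = 4 each), with a mean log2 fold change of 0.55 ± 0.14 (edgeR's quasi-likelihood test, adjusted p = 0.00601). The kinase gene pek-1 was lower (-0.44 ± 0.10, adjusted p = 0.00241). Of 13 genes for tRNA modification and export, the wobble uridine thiolation gene tut-1 (-0.39 ± 0.07, adjusted p = 0.000653) and the Elongator subunit gene elpc-4 (-0.23 ± 0.08, adjusted p = 0.0305) were lower. Of 7 RNA polymerase III genes, rpc-11 was lower (-0.41 ± 0.11, adjusted p = 0.00793). The shares called among the initiation factor, stress response, tRNA modification and RNA polymerase III genes were near or below the 16.1% and 15% of all tested genes, so these counts are no result about the lists.

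**Figure D5:**
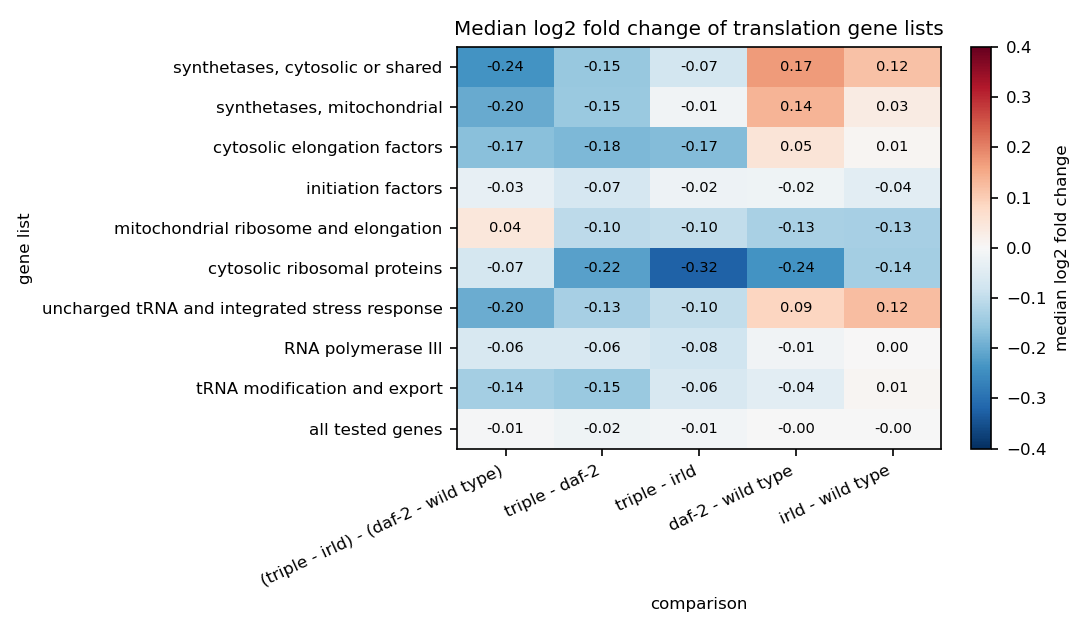
Median log2 fold change (colour and printed value) of the cytosolic and mitochondrial synthetase genes, of 7 other lists of translation and tRNA genes and of all tested genes, in 5 comparisons. The cytosolic ribosomal proteins have a median of -0.24 between daf-2 mutants and wild type, where the cytosolic synthetases have 0.17.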

How the data were processed

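Counts per gene of 16 libraries of starved L1 larvae were analysed. Per the submitters' processing notes and the README sheet of the deposited workbook, the authors mapped reads with Bowtie 1.2.2 to WS273 and assigned them to genes with HTSeq 0.11.2. How strands were set is not given in the sources used here. The deposited files hold raw counts for 46911 genes, and reads without a gene (40.4% to 42.5% of a library) were left out. The authors' deposited interaction table (edgeR 3.24.4, 12690 genes) holds log2 fold changes, mean log2 CPM, a score (quasi-likelihood F) and p-values, and was used for symbols and for the values credited to it.

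Here, 14058 genes (CPM of 1 or more in 4 or more libraries) were scaled with TMM factors and fitted in 1 robust quasi-likelihood model of 4 group means (edgeR 4.0.16, limma 3.58.1, R 4.3.3). The 7 contrasts were each adjusted by Benjamini-Hochberg over all tested genes and called under 0.05. The mean of 2 comparisons is 1 of these contrasts. The SE was taken as the size of the fold change (log2) divided by the root of F, CPM use TMM-scaled library sizes and log2 CPM use a prior count of 2. Coding lengths and overlaps come from Ensembl 115 (WBcel235), later than the annotation used for counting. The procedure was tested on simulated data. No libraries were identical. Counting precision is set by 62 to 19826 counts per member and library, and the labels do not say whether replicates were grown apart in time, so p-values measure the spread between these samples.

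Members, related lists and tests were chosen with earlier results of these data known. Shown per library are the 8 called members with the smallest adjusted p in any contrast and the most and least abundant ones per coding length. From each related list up to 4 called genes are named. The compartments come from general knowledge of orthologs, not from the files. Listed names atf-5, adat-1 and adat-2 were not matched. Alternatives were DESeq2 1.42.0 tests and size factors, library sizes of all reads, other low-count filters, only the groups compared, the replicate block, each triple mutant line alone and each library left out. Leaving out wild-type replicate 3 and irld replicate 1 together was added after seeing the data.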

Additional observations from a re-analysis of the deposited data

Results flagged for a closer look

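In 10 of 132 groups of 4 libraries, 1 library stood far from the other 3 by Dixon's criterion at the 95% level, where chance gives about 1 in 20. In 4 of the 10 the library was wild-type replicate 3. It had 136.2 CPM for aars-2, the cytosolic alanine enzyme, against 236.4 to 254.4 CPM in the other wild-type libraries, 489.3 CPM for lars-1 (others 736.1 to 777.8), and 231.4 CPM for cars-1 (others 262.9 to 265.6). For ears-2, the mitochondrial glutamate enzyme, it was high, at 35.81 CPM (others 27.0 to 27.75). The triple mutant libraries gave 3 cases. Replicate 1 of LRB457 had 201.6 CPM for cars-1 (others 167.7 to 173.3), replicate 1 of LRB458 had 132.9 CPM for the proline gene pars-1 (others 87.5 to 94.4), and replicate 4 of LRB458 had 27.91 CPM for ears-2 (others 31.8 to 32.2). Replicate 4 of the daf-2 mutant had 24.09 CPM for rars-2, the mitochondrial arginine enzyme (others 30.2 to 31.4). Replicate 3 of the irld mutant had 696 CPM for lars-1 (others 786.1 to 804.1) and 145 CPM for the glutamine gene qars-1 (others 164.7 to 166.3).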

How the results depend on the processing

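Of 470 checks of single members over 23 called results, 383 kept their direction and call, 87 kept their direction and lost the call, and none changed sign; the 7 results called in every setting were fars-2 and mars-1 between daf-2 mutants and wild type and cars-1, fars-2, kars-1, mars-1 and sars-2 in the 8 against 8 mean. The number of members called between daf-2 mutants and wild type was 7, and 2 when only the groups compared were fitted. Between the triple mutant and the irld mutant it was 2, and it became 4 with library sizes of all reads, 1 with no low-count filter, 4 with only the groups compared, 0 with line LRB457 alone, 1 with LRB458 alone and 5 (3 higher and 2 lower) without both wild-type replicate 3 and irld replicate 1. Between the triple mutant and wild type it was 4, and it became 2 with only the groups compared, 0 with LRB457 alone and 1 with LRB458 alone. In the 8 against 8 mean it was 10, and it became 5 with LRB457 alone and 6 with LRB458 alone. A line alone leaves 2 triple mutant libraries. Otherwise the cause was not tested. With each library left out in turn these counts were 5 to 9, 1 to 4, 3 to 7 and 7 to 12 in the same order of comparisons. The highest triple mutant to wild type count, 7, came without wild-type replicate 3. Between the triple mutant and the irld mutant the count was 4 without irld replicate 3, and 1 without irld replicate 2 or 4, LRB457 replicate 3 or LRB458 replicate 4. The counts for irld mutants over wild type, triple over daf-2 mutants and the interaction were 0 in every setting run. With the replicate block the counts were 6, 2, 4 and 8, and cars-1 between daf-2 mutants and wild type had an adjusted p of 0.0536. Deviations were correlated over 0.1 in 9 of 24 same-numbered pairs (range -0.46 to 0.31, median 0.03). In differently numbered pairs this was 18 of 72 (range -0.45 to 0.52, median -0.01). These counts do not decide whether the numbers pair the samples. Library sizes of all reads moved the median of all tested genes to 0.08 between the triple mutant and wild type. Changes under about ±0.26 in a member were within the median 95% interval of a comparison of 4 against 4.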

Other observations

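A set of 7 members moved together between replicates of the same genotype: the genes for the aspartate (dars-1), glycine (gars-1), asparagine (nars-1), proline (pars-1), serine (sars-1), threonine (tars-1) and tyrosine (yars-1) enzymes. In each, irld replicates 1 and 3 lay above replicates 2 and 4, and LRB458 replicate 1 was the highest triple mutant library. This pattern was chosen after the values were seen, and 7.21% of all tested genes show it. The clearest case was nars-1, with 61.2 CPM in LRB458 replicate 1 and 36.5 to 44.5 CPM in the other triple mutant libraries, and with 55.2, 35.7, 53.6 and 33.3 CPM in irld replicates 1 to 4.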
